A study of Homo sapiens with 12 samples.

Results

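The transcription factor genes described here belong to the growth-factor response and are EGR1, EGR2, FOS, FOSB, FOSL1, JUN, JUNB, ETV1, ETV4 and ETV5. They were chosen by name as 10 of the 58735 genes in the count table for being inducible through the ERK kinases. EGR1, EGR2, FOS, FOSB, FOSL1, JUN and JUNB are immediate-early genes, whose transcription starts within minutes of a signal without new protein synthesis. EGR1 and EGR2 are zinc finger factors that bind GC-rich DNA, and FOS and JUN proteins pair through leucine zippers to form AP-1. ETV1, ETV4 and ETV5 form the PEA3 group of ETS factors, which depend on sustained ERK signaling for their transcripts. In leukemia cells driven by BCR-ABL1, that kinase feeds RAS and ERK, and in erythroid cells AP-1 and EGR factors are known mostly from stress and growth-factor responses.

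The cells were K562, an erythroleukemia line that carries the BCR-ABL1 fusion, the kinase that nilotinib was designed to inhibit, and all groups are this 1 line. The 12 libraries formed 4 groups of 3 biological replicates: mock DMSO (solvent, no hemin), mock nilotinib (0.1 μM nilotinib, no hemin), hemin DMSO (solvent, then 50 μM hemin for 24 h) and hemin nilotinib (0.1 μM nilotinib, then 50 μM hemin for 24 h). Hemin is the iron-containing porphyrin that makes K562 cells accumulate hemoglobin. Nilotinib or solvent was given 24 h before hemin, and the study's methods give collection at 0 and 24 h, the mock libraries carrying 0 h in their names. The hemin libraries thus hold 24 h of further culture as well as hemin, and these cannot be told apart. Below, a change with hemin means hemin libraries against mock libraries, so it includes that further culture. The study's results describe hemin treatment with nilotinib present. Its methods give the drug as a pretreatment and do not say whether it was removed. If nilotinib stayed on, hemin nilotinib had a longer exposure to the drug than mock nilotinib. Hemin and the length of exposure then cannot be told apart in any comparison between the 2 nilotinib effects.

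The libraries held 33457078 to 50506990 counts, and 3 counts, used here as the detection floor, corresponded to 0.0540 to 0.0957 CPM (counts scaled to library size, with TMM factors for composition). All 7 erythroid markers, among them GATA1, KLF1 and HBG1, exceeded 1 CPM in each group on average. Their sum was 1087 to 1890 CPM in mock DMSO and 889 to 1099 CPM in hemin DMSO, so it was not raised with hemin in DMSO. With nilotinib the sum was 5349 to 6522 CPM in mock and 3365 to 6128 CPM in hemin libraries. Of the 16 markers of other cell types, MPO, ELANE, CD3E, MS4A1, GP9, PF4 and PPBP stayed at or under 0.351 CPM in every library. The summed 5 myeloid markers were at 25.9 to 45.9 CPM without nilotinib and 2.18 to 4.84 CPM with it, mostly LYZ and CD14, and the summed 4 megakaryocyte markers, almost all ITGA2B, at 30.9 to 69.8 and 7.24 to 19.2 CPM. The 3 fibroblast markers summed to 8.73 to 31.5 CPM without nilotinib and 9.89 to 23.0 CPM with it. Their part in the results below was not tested. In these bulk libraries, fewer cells of a type and less RNA per cell cannot be told apart. Hemin nilotinib replicate 1 stood apart from replicate 3 of its group (Pearson r of log2 CPM across genes 0.969, the lowest of any replicate pair, against up to 0.992), and results that rest on it are given with and without it.

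The genes lie on 9 chromosomes, and the positions in the count table (GRCh38) were those of GENCODE 29 for all 10. EGR1 (ENSG00000120738) spans chr5:138465490-138469315 on the plus strand, and EGR2 (ENSG00000122877) spans chr10:62811996-62919900 on the minus strand. FOS (ENSG00000170345) is at chr14:75278774-75282230 and FOSB (ENSG00000125740) at chr19:45467995-45475179, both on the plus strand, while FOSL1 (ENSG00000175592) is at chr11:65892049-65900573 on the minus strand. JUN (ENSG00000177606) is at chr1:58780788-58784327 on the minus strand, and JUNB (ENSG00000171223) at chr19:12791496-12793315 on the plus strand. ETV1 (ENSG00000006468) at chr7:13891228-13991425, ETV4 (ENSG00000175832) at chr17:43527844-43579620 and ETV5 (ENSG00000244405) at chr3:186046308-186110318 are all on the minus strand. Of the 10, 7 share no exon base with another gene. JUNB shares 14.2% of its exon bases with HOOK2 on the opposite strand, ETV4 shares 1.89% with DHX8 on the opposite strand, and ETV5 shares 2.83% with DGKG on the same strand, and how the counting treated such bases was not given in the sources used here.

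Promoter sequences were found in RefSeq (GRCh38.p14) for 7 of the 10 genes. The stretches before the start of 6 of them are shown because these genes represent the response types described below: EGR1 and ETV1 with a low level under nilotinib, EGR2, FOS and FOSB with their highest level after hemin, and JUNB with a higher level under nilotinib. Each runs 5′ to 3′ on the gene's strand, ends where the first annotated exon begins or at the RefSeq start, and carries in capitals the letters of any searched motif. The stretches are chr5:138465229-138465478 (plus strand), chr10:62816367-62816616 (minus strand, the third of 3 listed EGR2 promoters), chr14:75278578-75278773 (plus), chr19:45467746-45467994 (plus), chr19:12791236-12791485 (plus) and chr7:13991426-13991675 (minus, the second of 6 listed ETV1 promoters).
EGR1: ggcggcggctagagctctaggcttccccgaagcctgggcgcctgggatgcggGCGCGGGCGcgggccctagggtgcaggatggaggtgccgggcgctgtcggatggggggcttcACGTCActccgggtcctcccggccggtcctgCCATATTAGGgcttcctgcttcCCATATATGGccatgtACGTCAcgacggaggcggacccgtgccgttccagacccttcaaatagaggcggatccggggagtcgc
EGR2: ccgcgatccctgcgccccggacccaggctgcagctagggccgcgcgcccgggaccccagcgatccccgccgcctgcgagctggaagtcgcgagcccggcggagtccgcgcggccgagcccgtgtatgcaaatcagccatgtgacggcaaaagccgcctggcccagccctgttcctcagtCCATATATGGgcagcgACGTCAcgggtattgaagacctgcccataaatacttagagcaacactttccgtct
FOS: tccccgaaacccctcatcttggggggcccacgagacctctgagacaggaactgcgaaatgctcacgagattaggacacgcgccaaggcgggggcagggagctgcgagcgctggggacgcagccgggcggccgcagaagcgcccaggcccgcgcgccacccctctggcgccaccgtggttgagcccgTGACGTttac
FOSB: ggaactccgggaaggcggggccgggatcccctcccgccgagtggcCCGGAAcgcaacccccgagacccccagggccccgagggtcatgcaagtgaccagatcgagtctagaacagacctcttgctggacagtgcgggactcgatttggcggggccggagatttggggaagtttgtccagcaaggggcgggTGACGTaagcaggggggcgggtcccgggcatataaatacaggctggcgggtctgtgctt
JUNB: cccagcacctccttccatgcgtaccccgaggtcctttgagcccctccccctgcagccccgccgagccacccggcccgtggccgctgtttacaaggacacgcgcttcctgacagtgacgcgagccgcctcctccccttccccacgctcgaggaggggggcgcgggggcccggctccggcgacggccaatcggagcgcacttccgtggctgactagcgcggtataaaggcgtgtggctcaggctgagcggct
ETV1: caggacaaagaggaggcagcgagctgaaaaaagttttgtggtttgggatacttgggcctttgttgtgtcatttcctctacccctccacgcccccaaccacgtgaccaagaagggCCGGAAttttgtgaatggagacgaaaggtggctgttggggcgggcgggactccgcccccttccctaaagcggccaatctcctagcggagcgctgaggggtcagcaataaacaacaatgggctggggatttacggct

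In the 250 bases before each RefSeq start, both strands were searched for the AP-1 motif TGANTCA, the cyclic AMP response element TGACGTCA, its core TGACGT (added after the sequences were read, and contained in the longer element), the EGR motif GCGNGGGCG, the CArG box bound by serum response factor, and the ETS motif CCGGAA. EGR1 held 2 CArG boxes, which started 105 and 83 bases before its start, and the third EGR2 promoter held 1, starting at 71 bases, where 1.16% of all 35116 RefSeq promoters held any. The core TGACGT occurred in EGR1 (2 matches), the third EGR2 promoter, FOS (from 64 bases before the start) and FOSB (from 60 bases), against 7.1% of all promoters. EGR1 also held 1 EGR motif (8.41% of all promoters), and FOSB and 3 of the 6 ETV1 promoters held 1 ETS motif each (14.5%). ETV1 promoters 1 and 4 overlap, and their ETS match is the same site. AP-1 (6.57%) and TGACGTCA (1.65%) matched in none of the 14 promoters of these genes, and JUN and JUNB held none of the motifs. No match says only that these letters are absent from this window. For JUN all 250 bases of the window lie in annotated exons, so the stretch before the annotated gene was not searched.

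The filter on low counts was passed by 9 of the 10 genes and not by EGR2. The 9 are described as 3 types by their levels, which overlap in part, as the plot of CPM by library shows. EGR1 and the PEA3 genes ETV1, ETV4 and ETV5 were expressed in both DMSO groups and were 9.87-fold to 143-fold lower with nilotinib in each state. FOS, FOSB, FOSL1 and JUN had their highest levels in hemin DMSO, above every library of the 3 other groups. ETV5, placed in the first type by its fall with nilotinib, shared this trait (39.7 to 60.5 CPM in hemin DMSO, 18.8 to 24.5 CPM in mock DMSO). JUNB had its lowest level in mock DMSO and its highest levels with nilotinib.

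**Figure D1:**
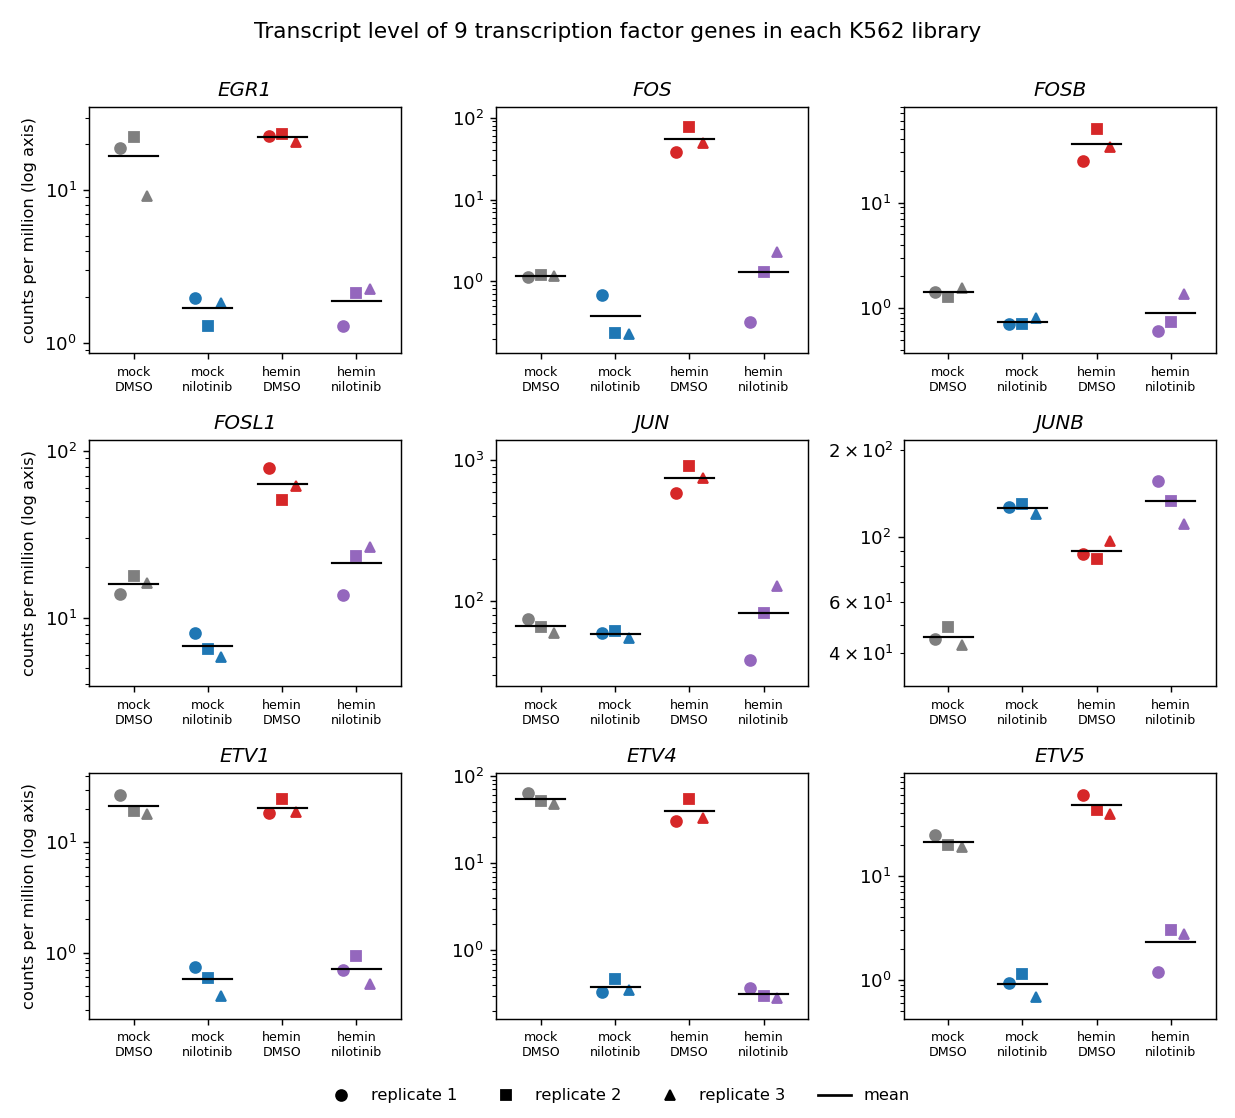
Level of 9 of the 10 genes in CPM (log axis) in each of the 12 K562 libraries, by group, with symbols for replicates 1 to 3 and a bar for the group mean; EGR2, which failed the filter on low counts, is not drawn. FOS reaches 38.5 to 77 CPM in hemin DMSO and at most 2.27 CPM elsewhere, ETV4 is at 30.5 to 64.0 CPM without nilotinib and 0.280 to 0.467 CPM with it, and JUNB is lowest in mock DMSO (42.8 to 49.1 CPM).

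EGR1, a zinc finger activator that is among the quickest transcripts to follow ERK activity, measured 18.9, 22.3 and 9.21 CPM in mock DMSO replicates 1 to 3, 1.98, 1.28 and 1.82 in mock nilotinib, 22.8, 23.3 and 20.6 in hemin DMSO and 1.29, 2.11 and 2.27 in hemin nilotinib. Libraries with and without nilotinib did not overlap in either state, whereas the mock and hemin libraries overlapped both with and without the drug. With nilotinib EGR1 was 9.87-fold lower without hemin (log2 fold change -3.30 ± 0.31 SE, adjusted p = 3.55e-07) and 11.7-fold lower with hemin (-3.55 ± 0.31, adjusted p = 6.46e-08). Hemin moved it by 0.41 ± 0.27 (log2) without nilotinib (adjusted p = 0.213) and by 0.16 ± 0.31 with it (adjusted p = 0.804), and neither passed the test. Without mock DMSO replicate 3, the lowest of its group, the hemin value became 0.07.

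EGR2, a relative of EGR1 with a nearly identical DNA-binding domain, was close to the floor, with 3, 3 and 0 counts in mock DMSO, 1, 0 and 0 in mock nilotinib, 7, 17 and 15 in hemin DMSO and 5, 1 and 1 in hemin nilotinib. The hemin DMSO libraries lay above all others. With every gene of 1 count or more kept in the fit, EGR2 was higher with hemin in DMSO (log2 fold change 3.05 ± 0.89, adjusted p = 0.00213) and lower with nilotinib in hemin (-2.49 ± 0.87, adjusted p = 0.0114), and in mock libraries a difference was not detectable at this depth.

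FOS, the AP-1 subunit that cannot pair with itself and needs a JUN partner, measured 1.13, 1.22 and 1.17 CPM in mock DMSO, 0.685, 0.233 and 0.231 in mock nilotinib, 38.5, 77 and 49.4 in hemin DMSO and 0.316, 1.29 and 2.27 in hemin nilotinib. The hemin DMSO libraries stood far above the others, and hemin nilotinib overlapped both mock groups. Hemin raised FOS 46.7-fold in DMSO (log2 fold change 5.55 ± 0.47, adjusted p = 1.33e-07). With hemin present nilotinib lowered it 41.6-fold (-5.38 ± 0.47, adjusted p = 6.91e-08). Without hemin it was 2.97-fold lower with nilotinib (-1.57 ± 0.54, adjusted p = 0.0277), from 51 to 63 counts per library down to 8 to 27. That call was lost without mock DMSO replicate 2 (adjusted p = 0.0544), mock nilotinib replicate 2 (0.0891) or mock nilotinib replicate 3 (0.0894), and on the deposited FPKM (0.323 and 0.0562 with pseudocounts 1 and 0.1).

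FOSB, a FOS relative known for its stable truncated form in neurons, measured 1.42, 1.26 and 1.54 CPM in mock DMSO, 0.710, 0.700 and 0.807 in mock nilotinib, 24.8, 49.4 and 33.8 in hemin DMSO and 0.604, 0.741 and 1.36 in hemin nilotinib. As for FOS, replicate 2 was the highest of the hemin DMSO libraries and replicate 1 the lowest of the hemin nilotinib libraries. FOSB rose 25.5-fold with hemin in DMSO (4.67 ± 0.30, adjusted p = 1.05e-08) and was 39.3-fold lower with nilotinib in hemin (-5.30 ± 0.31, adjusted p = 1.07e-09). Without hemin the drop with nilotinib was 1.91-fold (-0.93 ± 0.31, adjusted p = 0.0243). It lost its call without mock DMSO replicate 3 (0.0626), mock nilotinib replicate 1 (0.0665) or mock nilotinib replicate 2 (0.0588), with upper-quartile scaling (0.0517) and on the FPKM (0.531 and 0.0928).

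FOSL1 encodes FRA1, the FOS relative that lacks the strong activation domain of FOS and is stabilized by ERK phosphorylation. It measured 13.9, 17.6 and 16.1 CPM in mock DMSO, 8.09, 6.48 and 5.77 in mock nilotinib, 78.1, 50.9 and 61.0 in hemin DMSO and 13.6, 23.4 and 26.5 in hemin nilotinib. All 4 comparisons passed the test. FOSL1 was 2.34-fold lower with nilotinib in mock cells (-1.23 ± 0.23, adjusted p = 0.000404) and 2.99-fold lower in hemin (-1.58 ± 0.22, adjusted p = 1.34e-05). Hemin raised it 3.99-fold in DMSO (2.0 ± 0.23, adjusted p = 2.60e-06) and 3.12-fold with nilotinib (1.64 ± 0.23, adjusted p = 0.00132). The nilotinib effect differed between the states by -0.35 ± 0.31 (adjusted p = 0.422), which did not pass the test.

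JUN, the AP-1 subunit that is activated by the JUN kinases and also drives its own gene, had the highest level per length (FPKM) of the 10 in hemin DMSO. It measured 75.3, 66.1 and 59.4 CPM in mock DMSO, 59.5, 61.9 and 54.4 in mock nilotinib, 590.3, 917 and 754 in hemin DMSO and 38.1, 82.9 and 128 in hemin nilotinib. The mock groups overlapped, hemin DMSO lay far above the others, and hemin nilotinib ran from below to above both mock groups. Hemin raised JUN 11.3-fold in DMSO (3.49 ± 0.31, adjusted p = 2.42e-07), and with hemin present nilotinib lowered it 9.09-fold (-3.18 ± 0.31, adjusted p = 2.34e-07). In mock cells nilotinib moved it by -0.19 ± 0.29 (adjusted p = 0.619), and the effect of the drug differed between the states by -2.99 ± 0.41 (adjusted p = 8.95e-05). With nilotinib present, hemin moved JUN by 0.50 ± 0.29 (adjusted p = 0.334). The value was 0.84 (adjusted p = 0.00551) without hemin nilotinib replicate 1 and 0.04 without hemin nilotinib replicate 3.

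JUNB, the JUN relative that often restrains JUN activity and is also a target of STAT signaling, measured 44.9, 49.1 and 42.8 CPM in mock DMSO, 127, 130.5 and 121 in mock nilotinib, 87.4, 84.0 and 97.5 in hemin DMSO and 156, 133 and 111 in hemin nilotinib. The mock DMSO libraries were the lowest and the nilotinib libraries of both states, which overlapped, the highest. JUNB was the 1 gene of the 9 that was higher with nilotinib, 2.76-fold in mock cells (1.47 ± 0.13, adjusted p = 2.98e-07) and 1.49-fold in hemin (0.57 ± 0.13, adjusted p = 0.00120). Hemin raised it 1.97-fold in DMSO (0.97 ± 0.13, adjusted p = 1.58e-05) and moved it by 0.08 ± 0.13 with nilotinib (adjusted p = 0.758). HOOK2, the gene that shares exon bases with it, had 29.6 ± 1.14 CPM (SD, n = 3) in mock DMSO, 22.1 ± 1.36 in mock nilotinib, 18.5 ± 1.69 in hemin DMSO and 19.7 ± 4.41 in hemin nilotinib. With nilotinib HOOK2 changed by -0.42 (log2) in mock cells (adjusted p = 0.0394) and by 0.10 in hemin (adjusted p = 0.602), and its part in the JUNB values was not tested.

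ETV1, ETV4 and ETV5 share a nearly identical ETS domain and bind the same DNA core. ETV4 measured 64.0, 51.3 and 48.1 CPM in mock DMSO, 0.330, 0.467 and 0.346 in mock nilotinib, 30.5, 54.1 and 33 in hemin DMSO and 0.374, 0.302 and 0.280 in hemin nilotinib. These nilotinib levels rest on 11 to 16 counts per library. ETV4 was 143-fold lower with nilotinib in mock cells (-7.15 ± 0.28, adjusted p = 1.53e-10) and 123-fold lower in hemin (-6.94 ± 0.28, adjusted p = 3.37e-11), the largest falls among the 9 genes in both comparisons. Hemin lowered it 1.39-fold in DMSO (-0.47 ± 0.19, adjusted p = 0.0483), but the mock and hemin libraries overlapped, and the call was lost with DESeq2 (adjusted p = 0.112), with RLE (0.0733) or upper-quartile scaling (0.126), with a minimum of 10 counts in every library (0.0661), in the 6 libraries alone (0.0661), on the FPKM (0.0614 and 0.0988), and without mock DMSO replicate 1 (0.135) or 2 (0.0668) or hemin DMSO replicate 1 (0.215) or 3 (0.207). Without hemin DMSO replicate 2 the value was -0.77.

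ETV1, the PEA3 factor best known as a fusion partner in prostate and Ewing tumors, measured 26.8, 19.3 and 18.0 CPM in mock DMSO, 0.735, 0.583 and 0.404 in mock nilotinib, 18.4, 24.8 and 18.7 in hemin DMSO and 0.690, 0.933 and 0.514 in hemin nilotinib. The groups separated by drug and overlapped by hemin. ETV1 was 36.8-fold lower with nilotinib in mock cells (-5.20 ± 0.28, adjusted p = 1.29e-09) and 29.1-fold lower in hemin (-4.86 ± 0.27, adjusted p = 6.53e-10). Hemin moved it by -0.05 ± 0.22 in DMSO (adjusted p = 0.862) and by 0.29 ± 0.31 with nilotinib (adjusted p = 0.633).

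ETV5, which maintains spermatogonial and other stem cells, measured 24.5, 19.9 and 18.8 CPM in mock DMSO, 0.938, 1.14 and 0.692 in mock nilotinib, 60.5, 42.8 and 39.7 in hemin DMSO and 1.21, 3.02 and 2.78 in hemin nilotinib. Unlike those of ETV1 and ETV4, all of its hemin libraries lay above the mock libraries of the same drug. ETV5 was 22.8-fold lower with nilotinib in mock cells (-4.51 ± 0.31, adjusted p = 1.22e-08) and 20.3-fold lower in hemin (-4.34 ± 0.29, adjusted p = 3.98e-09). Hemin raised it 2.26-fold in DMSO (1.18 ± 0.25, adjusted p = 0.000818) and 2.54-fold with nilotinib (1.34 ± 0.31, adjusted p = 0.0214). The second call was lost without mock nilotinib replicate 2 (adjusted p = 0.0567) or 3 (0.108), without hemin nilotinib replicate 2 (0.101) or 3 (0.0565), in the 6 libraries alone (0.119) and on the FPKM (0.392 and 0.0987). DGKG, which shares exon bases with ETV5 on the same strand, went from 0.465 ± 0.107 CPM (SD, n = 3) in mock nilotinib to 4.04 ± 0.633 in hemin nilotinib, and its part in the ETV5 value was not tested.

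The comparison of nilotinib with solvent in hemin-treated cells asks what the drug changed in cells given hemin. Of the 9 tested genes 8 were lower and 1 higher, with a median log2 fold change of -4.34 against 0.02 over all 20821 genes tested, of which 31.8% were lower and 32.4% higher. In mock cells 7 of the 9 were lower, 1 higher and JUN not called, with a median of -1.57 against 0.00, where 21.8% of all genes were lower and 20.7% higher. The test of the difference between the 2 nilotinib effects called 4 of the 9, all lower with hemin, where 13% of all genes were lower and 17.1% higher. In these values the state and the length of exposure to nilotinib cannot be told apart, as given above. The 4 were FOSB (-4.37 ± 0.43), FOS (-3.81 ± 0.74), JUN (-2.99 ± 0.41) and JUNB (-0.89 ± 0.19), and for JUNB this is a smaller rise. For EGR1 (-0.24 ± 0.41), ETV1 (0.34 ± 0.38), ETV4 (0.22 ± 0.42) and ETV5 (0.17 ± 0.40) the difference did not pass the test. The comparisons share libraries, so each is given by its own values.

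The comparison of hemin with mock asks what hemin and the 24 h of further culture changed together. In DMSO 6 of the 9 were higher (FOS, FOSB, JUN, FOSL1, ETV5 and JUNB) and 1 lower (ETV4), with a median of 1.18 against -0.05 over all genes, of which 25.7% were higher and 27.8% lower. With nilotinib present 2 of the 9 were higher (FOSL1 and ETV5) and 0 lower by edgeR, with a median of 0.30 against 0.03, where 3.52% of all genes were higher and 2.28% lower. At an unadjusted p under 0.05 no member was lower there, and DESeq2 also called none lower. Without hemin nilotinib replicate 1, 4 of the 9 were called higher there, FOS (2.18, adjusted p = 0.00154) and JUN (0.84, adjusted p = 0.00551) being added, and without mock nilotinib replicate 2 or 3 or hemin nilotinib replicate 2 or 3 FOSL1 alone was. FOS reached 1.74 ± 0.55 with all libraries (adjusted p = 0.0711), and 2.49 (adjusted p = 0.0438) without mock nilotinib replicate 1. Over left-out libraries FOS ran from 1.03 to 2.49 there and JUN from 0.04 to 0.84. The plot of log2 fold changes sets the 4 comparisons side by side.

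**Figure D2:**
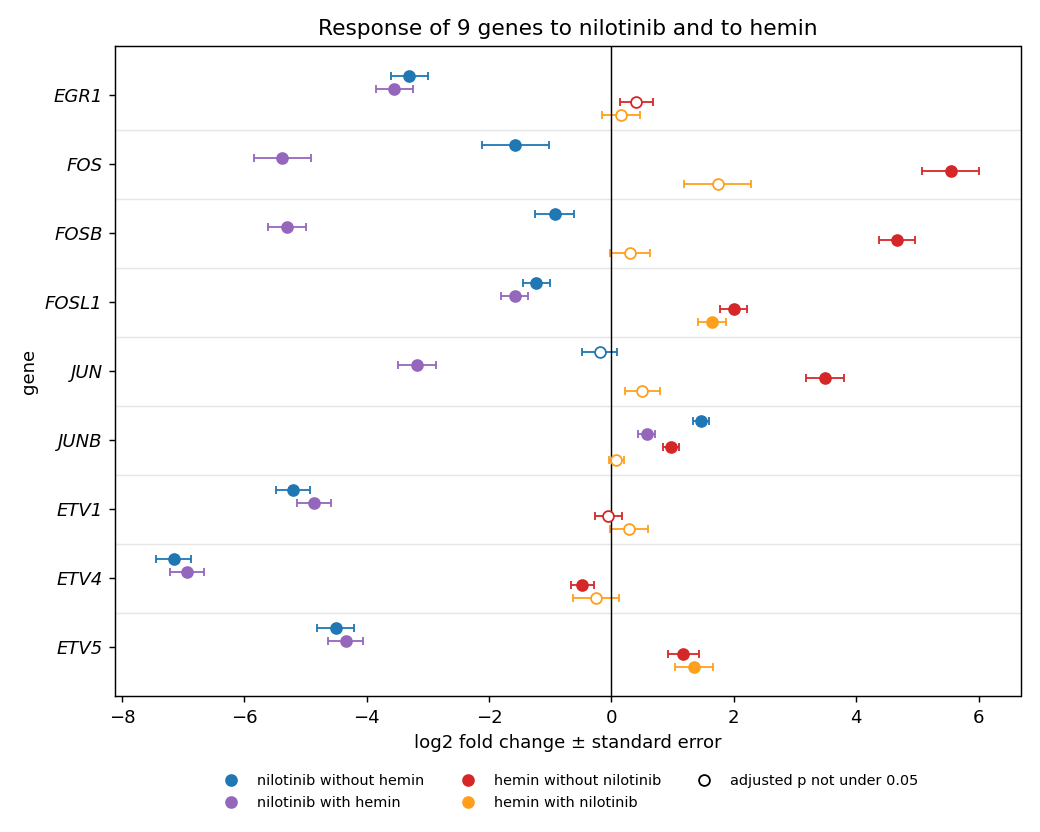
Fitted log2 fold change with its standard error for 9 genes in 4 comparisons, nilotinib without and with hemin and hemin without and with nilotinib; filled points passed an adjusted p under 0.05. EGR1, ETV1, ETV4 and ETV5 lie at -3.30 to -7.15 for nilotinib without hemin and at -3.55 to -6.94 with it, whereas FOS, FOSB and JUN fall further with hemin (-5.38, -5.30 and -3.18) than without it (-1.57, -0.93 and -0.19).

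Per length, the makeup of each family changed with the group, as the stacked plot of FPKM (fragments per kilobase, depth-scaled, as deposited) shows. The FOS family (FOS, FOSB, FOSL1 and FOSL2) summed to 9.85 ± 1.07 FPKM (SD, n = 3) in mock DMSO, 4.11 ± 0.702 in mock nilotinib, 60.6 ± 3.52 in hemin DMSO and 11.8 ± 3.70 in hemin nilotinib. On average FOSL1 held 84.3%, 86.3% and 93.2% of the sum in mock DMSO, mock nilotinib and hemin nilotinib but 56.0% in hemin DMSO, where FOS held 28.1% and FOSB 10.8%. In the JUN family JUND, the relative with the steadiest expression, held 69.2% of 141 FPKM in mock DMSO and 60.5% of 239.7 FPKM in hemin nilotinib. JUN held 13.3%, 8.05% and 9.62% in mock DMSO, mock nilotinib and hemin nilotinib and 53.8% of 396 FPKM in hemin DMSO. JUNB held 17.6% in mock DMSO and 33.6% in mock nilotinib. The PEA3 sum was 20.7 ± 3.16 FPKM in mock DMSO, 0.321 ± 0.0644 in mock nilotinib, 21.4 ± 3.77 in hemin DMSO and 0.553 ± 0.161 in hemin nilotinib. ETV4 held 72.1% and ETV5 17.4% of it in mock DMSO, and 50.6% and 39.3% in hemin DMSO. Among the EGR genes, EGR1 held 96.1% to 99.4% of the summed FPKM of EGR1 to EGR4 in every group, on average.

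**Figure D3:**
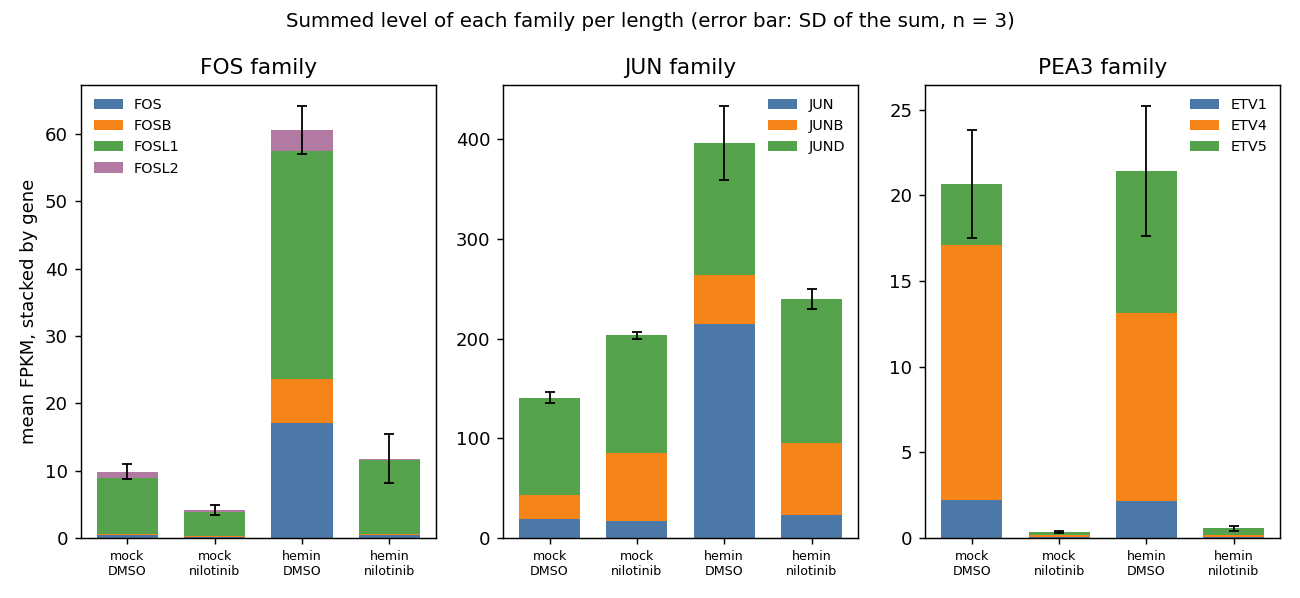
Mean FPKM of each gene, stacked within the FOS, JUN and PEA3 families, in the 4 groups of 3 libraries; the error bar is the SD of the family sum. The FOS and JUN families peak in hemin DMSO (60.6 and 396 FPKM), with FOSL1 the largest part of the FOS family there (33.8 FPKM, against 17.1 for FOS) and JUN the largest of the JUN family, and the PEA3 sum is 0.321 and 0.553 FPKM in the nilotinib groups against 20.7 and 21.4 FPKM without the drug.

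Genes around these factors were followed as 9 lists, described by counts of their tested genes. In other immediate-early genes, 17 of 21 were lower and 2 higher with nilotinib in hemin. With hemin in DMSO 18 were higher and none lower, and 16 had a lower nilotinib effect with hemin than without. The median log2 fold changes were -1.73 for nilotinib in hemin and 2.61 for hemin in DMSO. GADD45B, a stress gene that binds MAP kinase kinases, went from 1.28 ± 0.318 CPM (SD, n = 3) in mock DMSO to 65.6 ± 42.1 in hemin DMSO and 1.56 ± 1.11 in hemin nilotinib. NR4A3, an orphan nuclear receptor, changed by 4.84 ± 0.41 with hemin in DMSO (adjusted p = 1.16e-07) and by -4.82 ± 0.42 with nilotinib in hemin (adjusted p = 6.25e-08). KLF2, a zinc finger factor, changed by -4.99 ± 0.43 with nilotinib in hemin (adjusted p = 6.08e-08). NR4A3 was near the detection floor in mock DMSO and hemin nilotinib, at 0.123 CPM on average in each. KLF2 averaged 0.341 CPM in hemin nilotinib, with a lowest library of 0.0575 CPM. In the list of EGR and AP-1 relatives 6 of 11 were lower and none higher with nilotinib in hemin, and 7 were higher and 1 lower with hemin in DMSO. Among them BATF3, a partner of JUN, fell by 4.21 ± 0.46 on the log2 scale with nilotinib in hemin, the stress factor ATF3 fell by 3.70 ± 0.39, and FOSL2, the gene of FRA2, fell by 3.51 ± 0.21. BATF3 was near the floor in hemin nilotinib, at 0.234 CPM on average. ATF3 rose by 3.45 ± 0.38 and MAFF, a small MAF protein, by 2.24 ± 0.33 with hemin in DMSO.

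The ERK feedback inhibitors are transcripts that ERK activity induces and that in turn restrain it. Of 8 tested, 5 were lower and none higher with nilotinib in hemin, 6 lower and 1 higher with nilotinib in mock cells, and 4 higher and 1 lower with hemin in DMSO. SPRY4, a Sprouty protein, went from 22.8 ± 4.23 CPM in mock DMSO to 0.313 ± 0.0194 in mock nilotinib and from 44.3 ± 10.5 in hemin DMSO to 0.485 ± 0.121 in hemin nilotinib (SD, n = 3), a log2 fold change of -6.49 ± 0.26 in hemin. The ERK phosphatases DUSP5 and DUSP4 fell by 3.65 ± 0.27 and 3.11 ± 0.35 with nilotinib in hemin and rose by 1.95 ± 0.24 and 3.25 ± 0.35 with hemin in DMSO. Of 11 EGR corepressors and AP-1 or PEA3 target genes, 7 were lower and 1 higher with nilotinib in hemin, and 4 higher and 3 lower with hemin in DMSO. The urokinase gene PLAU fell by 4.18 ± 0.40, cyclin D1 (CCND1) by 3.43 ± 0.42 and VEGFA fell by 1.24 ± 0.19 with nilotinib in hemin. CCND1 rose by 1.10 ± 0.37 and the protease gene MMP9, which stayed under 1 CPM on average in every group, by 1.36 ± 0.52 with hemin in DMSO.

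The genes of the kinases and of the DNA-binding partners showed smaller and mixed differences. Of 11 ERK cascade kinases 3 were higher and 3 lower with nilotinib in hemin and likewise with hemin in DMSO, among them MAP2K1 (MEK1), which fell by 1.19 ± 0.13 with nilotinib in hemin and rose by 0.63 ± 0.13 with hemin, RPS6KA3, which fell by 0.78 ± 0.12 with nilotinib in hemin, and MAP2K5, which fell by 0.66 ± 0.15. In the JUN kinase cascade 2 of 6 were higher and 1 lower with nilotinib in hemin, and 1 higher and 1 lower with hemin in DMSO. MAP3K20, which encodes ZAK, the stress kinase at the head of the pathway the study pursued, had 49.8 ± 0.430 CPM in hemin DMSO and 88.2 ± 9.85 in hemin nilotinib, a rise of 0.82 ± 0.12. MAP2K4 fell by 0.73 ± 0.14 and MAP2K7 rose by 0.44 ± 0.12 with nilotinib in hemin, and with hemin in DMSO MAP2K4 rose by 0.52 ± 0.14 and MAPK9 fell by 0.44 ± 0.14.

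Of the 6 serum response and ternary complex factors, the proteins that carry ERK signals to CArG boxes, 2 were higher and 2 lower with nilotinib in hemin and none higher and 3 lower with hemin in DMSO. MRTFB rose by 1.61 ± 0.15 and ELK4 by 1.03 ± 0.18 with nilotinib in hemin while ELK3 fell by 0.67 ± 0.19, and MRTFB fell by 1.60 ± 0.15 and ELK4 by 0.73 ± 0.18 with hemin in DMSO. Of 9 other ETS factors 3 were lower and 1 higher with nilotinib in hemin, and 6 were lower and none higher with hemin in DMSO. ETS1 fell by 2.81 ± 0.42, SPI1 (PU.1, a myeloid regulator) by 2.74 ± 0.14 and ETS2 by 1.67 ± 0.22 with nilotinib in hemin, and ETS1 fell by 1.87 ± 0.33 and ELF2 by 1.0 ± 0.13 with hemin in DMSO. ETS1 was near the detection floor in hemin nilotinib, at 0.162 CPM on average. Of 9 repressors and turnover factors of the PEA3 and JUN proteins, 3 were lower and 1 higher with nilotinib in hemin, and 4 higher and 1 lower with hemin in DMSO. DET1, part of the COP1 ubiquitin ligase that degrades JUN and PEA3 proteins, rose by 2.60 ± 0.22 with nilotinib in hemin and fell by 1.42 ± 0.21 with hemin. The ETS repressors ERF and ETV3 fell by 1.66 ± 0.13 and 1.54 ± 0.12 with nilotinib in hemin, and ETV3 rose by 1.69 ± 0.12 with hemin. The plot of pathway genes shows these lists beside the 9 genes, and the shares of all genes called, given above, are the background for each list.

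**Figure D4:**
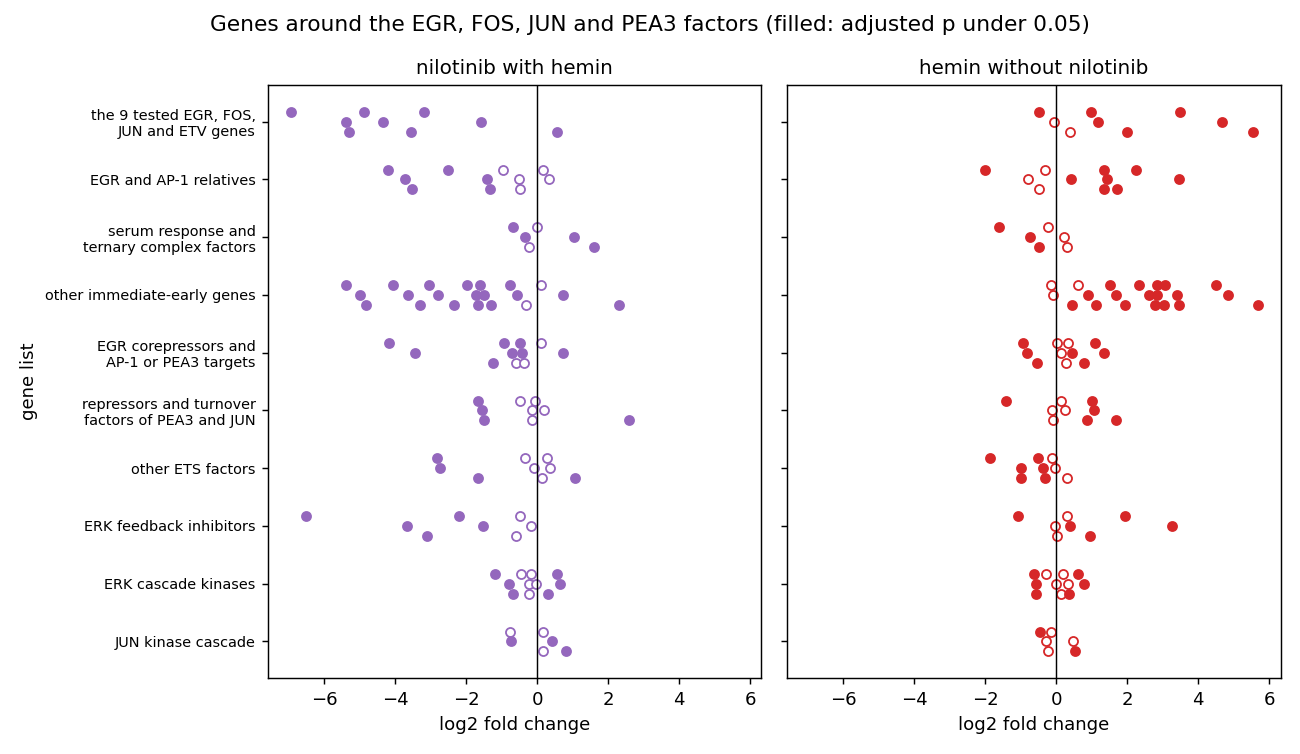
Fitted log2 fold change of each tested gene, by list, for nilotinib in hemin-treated cells (left) and for hemin in DMSO (right); filled points passed an adjusted p under 0.05, and the vertical offset within a list only separates points. The 21 other immediate-early genes lie mostly left of 0 on the left (17 lower) and right of 0 on the right (18 higher), and the kinase lists stay closer to 0.

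The genes whose log2 CPM followed each factor most closely over the 12 libraries were sought among 10933 protein-coding genes with a mean of at least 100 counts, as a description. The closest 3 were MILR1, SPRY4 and SLC2A3 for EGR1 (r = 0.985 each), FKBP4, DNAJB6 and IER5L for FOS (0.987 to 0.989), EFNA3, MEF2D and SCNM1 for FOSB (0.991 to 0.994), and YWHAG, PPID and SORCS1 for FOSL1 (0.978 to 0.987). They were SERPINH1, PGF and GADD45B for JUN (0.990 to 0.992) and DAAM1, MARK3 and KATNAL1 for JUNB (0.970 to 0.977). For the PEA3 genes they were SPTBN1, PKM and FCGR2A for ETV1 (0.993 to 0.996), RDH10, S100A11 and LAPTM4B for ETV4 (0.995 to 0.996), and LEPROTL1, FNBP1 and SLC39A14 for ETV5 (0.989 to 0.995). All points share the libraries, their depth and the 4 groups, so such r mostly reflect the differences between groups. FKBP4, DNAJB6, PPID and SERPINH1 encode chaperones or chaperone partners, SLC2A3 a glucose transporter and PKM a glycolytic enzyme.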

How the data were processed

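RNA-seq of K562 cells was analysed in 12 libraries, 3 biological replicates of each of 4 groups taken from the labels. The authors deposited raw read counts per gene, made by their sequencing service. The aligner and counter are not given in the sources used here, and the submitters' processing notes name GRCh38.p12, DESeq2 and DESeq. The authors also deposited FPKM, in which counts per kilobase are divided by median-of-ratios size factors and not by library totals, so they are not an independent normalization; they served for levels between genes and for alternatives. Their table of group means was not used here.

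Counts were tested in R 4.3.3 with edgeR 4.0.16: filterByExpr (minimum count 10, total 15) kept 20821 of 58735 genes, TMM scaling, 1 mean per group over all 12 libraries, and two-sided quasi-likelihood tests with Benjamini-Hochberg adjustment over all genes tested, called at 0.05. SE is the size of the log2 fold change before edgeR's shrinkage, divided by the root of F. The printed log2 fold changes are those after that shrinkage. An exact permutation test of 3 against 3 libraries cannot go below p = 0.1 and was not used. Alternatives were DESeq2 1.42.0, RLE and upper-quartile factors, 2 other filters, limma 3.58.1 on log2(FPKM + 1) and log2(FPKM + 0.1), the replicate block, the 6 libraries of a comparison alone, and each library left out. Counting intervals and floors cover counting error only.

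The 10 genes, the lists and the tests were chosen with earlier results of these data known. Besides the 10, the text names from each list up to 3 genes of largest change in nilotinib with hemin and up to 2 in hemin without nilotinib, among those called, not overlapping and averaging 10 counts or more over the libraries, and the 3 genes most correlated with each tested gene. A few marker and list genes are not reported here. Annotation (GENCODE 29, RefSeq promoters) and figures used Python 3.11.15 and matplotlib 3.10.9, and the fit was tested on simulated data. Deviations of same-numbered libraries from their group means were correlated. Mock nilotinib with hemin nilotinib alone exceeded 0.1 in each of 3 pairs (0.199 to 0.263), and hemin DMSO with hemin nilotinib reached 0.235 for replicate 3. Differently numbered libraries were not compared, so whether the label numbers pair libraries was not settled, and the main fit took no pairing.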

Additional observations from a re-analysis of the deposited data

Results flagged for a closer look

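The effect of nilotinib differed between hemin-treated and mock cells, by the test of the difference itself, for 4 of the 9 tested genes. On the log2 scale the difference (hemin minus mock) was -3.81 for FOS (adjusted p = 0.00133), -4.37 for FOSB (adjusted p = 6.73e-06), -2.99 for JUN (adjusted p = 8.95e-05) and -0.89 for JUNB (adjusted p = 0.00217). FOS, FOSB and JUN were lower in all 3 hemin nilotinib libraries than in any hemin DMSO library, and JUNB was higher. Over the alternatives and left-out libraries the difference ranged from -4.47 to -3.04 for FOS, from -4.76 to -2.52 for FOSB, from -3.41 to -2.63 for JUN and from -1.02 to -0.73 for JUNB. The hemin libraries were collected 24 h after the mock libraries, so hemin, the further culture and, if the drug stayed on, a longer exposure to nilotinib cannot be told apart in these values.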

How the results depend on the processing

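Of 715 values of single genes under the alternatives and left-out libraries, 669 kept their direction and side of the threshold, 29 kept the direction but lost the call, 5 gained one and 12 reversed, all 12 in values that had not passed the test. The comparison of hemin with mock in the presence of nilotinib moved most: against 1208 genes and 2 of the 9 genes called, DESeq2 called 1919 genes, all genes with any count 1987 and 4, limma on log2(FPKM + 1) 741 and 1, on log2(FPKM + 0.1) 694 and 1, and the 6 libraries alone 183 and 1. With a library left out, these counts ran from 213 (without mock nilotinib replicate 2) to 2793 (without hemin nilotinib replicate 1) genes and from 1 to 4 of the 9. The reversed values were ETV1 for hemin in DMSO, 0.065 with upper-quartile factors and -0.21 to 0.077 over left-out libraries, and the ETV5 difference between nilotinib effects, -0.74 on log2(FPKM + 1) (adjusted p = 0.0261), -0.28 on log2(FPKM + 0.1) and -0.030 to 0.49 over left-out libraries. Over left-out libraries the same difference for EGR1 ran from -0.49 to 0.10, and hemin with nilotinib from -0.025 to 0.37 for EGR1, -0.14 to 0.52 for FOSB and -0.046 to 0.19 for JUNB. The added pseudocount shrinks changes of low genes; the cause of the other shifts was not tested. With the replicate block, 1587 genes and 2 of the 9 were called there, and the block changed no call among the 9 in any comparison. Upper-quartile factors moved the median of all genes for nilotinib without hemin from 0.00 to 0.11 (log2). Depth limits EGR2, with at most 17 counts per library, and ETV4 under nilotinib, with 11 to 16. It also limits FOS under nilotinib, with 8 counts in mock nilotinib replicates 2 and 3 and 11 in hemin nilotinib replicate 1. ETV1 had 14 counts in mock nilotinib replicate 3.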
